A study of Canis lupus familiaris with 16 samples.

Results

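Across 4 peak lists of methylated DNA from canine high-grade B-cell lymphoma and healthy blood cells, 6156 of 145240 peaks carried the authors' flag for an enhancer, whatever their other flags. The flag was taken as deposited, and the annotations behind it are not given in the sources used here. The method was MethylCap-seq, an assay that captures methylated DNA fragments for sequencing, and each peak stands for a stretch where such fragments piled up. The lymphoma group comprised 5 dogs with this fast-growing tumour of B lymphocytes, whose DNA came from tumour cells aspirated from enlarged lymph nodes. They were a schnauzer aged 10 years with stage IV disease, a mixed-breed dog aged 10 years with stage IV-V, a dog of unstated breed aged 5 years with stage IV, a dachshund aged 10 years with stage III and a golden retriever aged 13 years with stage V. The healthy group comprised 3 dogs, a mixed-breed dog aged 7 years, a golden retriever aged 2 years and a standard poodle aged 5 years, whose DNA came from peripheral blood mononuclear cells. Every dog was sequenced once as L and once as M-H, giving 16 libraries, and the meanings of these labels are not given in the sources used here.

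Each group and fraction has 1 deposited list that pools its dogs. There is therefore no spread between dogs, no test between groups and no replicate check of any difference. Read depth is unknown. Disease and tissue went together in every library, so lymphoma and lymph node cannot be told apart from healthy and blood. Intervals in brackets are 95% Wilson intervals, which cover counting error only. The lists hold no expression values, so the labelled cell types could not be checked against marker genes. No sequence is printed, because no genome of the files' build was used here.

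Enhancers are stretches of DNA, often far from a gene or within its introns, that transcription factors bind to raise the activity of a promoter. In active enhancers the DNA is usually little methylated, and methylation of an enhancer commonly goes with its disuse in that cell type. In B cells, enhancers near genes of B-cell transcription factors change their methylation during differentiation, and redistribution of methylation between islands, shores and distal elements is a known feature of lymphoma.

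Lymphoma lists held more enhancer peaks, and a larger share of them, than the healthy lists of the same fraction. The flag was on 2133 of 45623 peaks of the lymphoma L list (4.68%, 4.49 to 4.87) and on 1802 of 44811 peaks of the healthy L list (4.02%, 3.84 to 4.21). In the other fraction it was on 1562 of 34939 lymphoma M-H peaks (4.47%, 4.26 to 4.69) and on 659 of 19867 healthy M-H peaks (3.32%, 3.08 to 3.58). Over all peaks of each list, the intervals of lymphoma and healthy lists did not overlap in either fraction. In L they did overlap once peaks of low fold enrichment were left out, as given in the last section. Enhancer peaks covered 1.54 Mb in lymphoma L, 1.08 Mb in healthy L, 1.18 Mb in lymphoma M-H and 0.400 Mb in healthy M-H. The higher share in lymphoma also held for peaks with none of the island, shore or promoter flags, at 4.41% against 3.88% in L and 3.84% against 2.56% in M-H (lymphoma against healthy). Where peaks of 2 lists overlapped and at least 1 carried the flag, both carried it for 95.3% of 1242 pairs of lymphoma L and healthy L peaks and 91.2% of 622 pairs of lymphoma M-H and healthy M-H peaks.

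**Figure D1:**
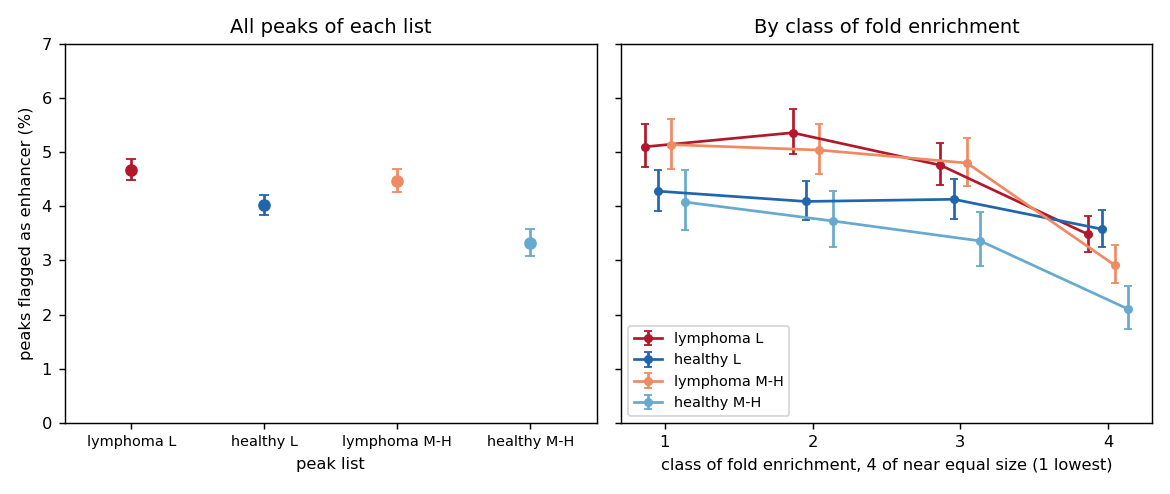
Share of peaks flagged as enhancer (%), with 95% Wilson intervals, over all peaks of each list (left) and in 4 classes of the list's fold enrichment, from lowest to highest (right). In every list the class with the highest fold enrichment has the lowest share, 3.48% in lymphoma L and 2.10% in healthy M-H.

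Enhancer peaks had a lower median fold enrichment than the other peaks in both lymphoma lists and in healthy M-H, and nearly the same in healthy L. Fold enrichment, the authors' ratio of reads in a peak to a background of unstated source, starts at 6 in every list and is compared here only within a list. Where a locus has peaks in several lists, the lowest value serves only to choose the loci named. Its median was 8.45 for enhancer peaks of lymphoma L and 8.96 for the peaks without the flag, and 9.45 and 10.1 in lymphoma M-H. In healthy L the medians were 7.75 and 7.77, and in healthy M-H they were 7.64 and 8.16. A fold enrichment of 12 or more was reached by 27.9% of enhancer peaks and 36.7% of the other peaks in lymphoma M-H, and by 5.31% and 12.1% in healthy M-H. With each list divided by fold enrichment into 4 classes of near equal size, the share flagged was lowest in the top class, at 3.48%, 3.58%, 2.91% and 2.10% in lymphoma L, healthy L, lymphoma M-H and healthy M-H, against 5.10%, 4.28%, 5.14% and 4.08% in the bottom class. Lengths were close to those of the other peaks: enhancer peaks had a median of 644 bp in lymphoma L, where the rest had 653 bp, and 677 bp in lymphoma M-H, where the rest had 732 bp.

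Most enhancer peaks lay in or near genes, and introns held the largest part. Introns held 43.3% of enhancer peaks and 38.8% of the rest in lymphoma L, 46.4% and 41.4% in healthy L, 40.4% and 35.6% in lymphoma M-H and 39.8% and 33.7% in healthy M-H. Intergenic positions were rarer among enhancer peaks in all 4 lists, at 25.7% and 33.4% in lymphoma L, 25.0% and 34.5% in healthy L, 25.4% and 34.5% in lymphoma M-H and 25.3% and 38.4% in healthy M-H. Of the annotated positions, 5' UTRs had the highest share of flagged peaks in all 4 lists, with 7.22% (5.88 to 8.83) in lymphoma L, 7.95% (6.27 to 10.0) in healthy L, 5.93% in lymphoma M-H and 5.74% in healthy M-H. Enhancer peaks with an assigned gene lay a median of 15864 bp from its transcription start in lymphoma L, where the rest lay 19108 bp away, and 20468 bp and 26062 bp in healthy L. The same medians were 12628 bp and 15292 bp in lymphoma M-H and 17020 bp and 22645 bp in healthy M-H. More than 10 kb from the start lay 58.8% of the enhancer peaks with a distance in lymphoma L, against 60.0% of the rest.

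CpG shores, the flanks of CpG-rich islands, held a larger part of the enhancer peaks than the islands did in every list, as they did of the other peaks. Shores held 32.5% of enhancer peaks and 31.8% of the rest in lymphoma L, 18.4% and 17.6% in healthy L, 47.9% and 46.0% in lymphoma M-H, and 44.5% and 36.8% in healthy M-H. The islands themselves held 5.95% of enhancer peaks and 4.39% of the rest in lymphoma L, 4.22% and 2.98% in healthy L, 11% and 8.18% in lymphoma M-H, and 15.6% and 13.6% in healthy M-H. No enhancer peak carried both flags. Promoters held 12.9% and 12.2% in lymphoma L, 8.71% and 8.08% in healthy L, 15.6% and 14% in lymphoma M-H, and 10.5% and 9.26% in healthy M-H (enhancer peaks and the rest). In both L lists the shares of enhancer and other peaks lay within a few percentage points of each other. None of these 3 flags was on 57.1% of enhancer peaks and 60.6% of the rest in lymphoma L, 73.3% and 76.1% in healthy L, 37.0% and 43.4% in lymphoma M-H, and 36.4% and 47.6% in healthy M-H.

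The X chromosome had few enhancer peaks. Over the 4 lists 86 of 6825 peaks on X carried the flag (1.26%), and the share on X was the lowest of all chromosomes in each list, at 1.39% in lymphoma L, 1.14% in healthy L, 1.55% in lymphoma M-H and 0.778% in healthy M-H. Among the 38 autosomes the share over all lists ranged from 2.42% on chromosome 19 to 7.65% on chromosome 35, with a median of 4.30%. Chromosome 35 was highest in both L lists and lymphoma M-H, and chromosome 38 in healthy M-H.

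The first comparison asked which enhancer peaks had no overlapping peak of the other group in the L fraction, with an overlap of 1 bp counted as shared. Lymphoma enhancer peaks lacked a healthy counterpart more often than the other lymphoma peaks did, whereas for healthy peaks the intervals of enhancer and other peaks overlapped. Of 2133 lymphoma L enhancer peaks, 913 overlapped no healthy L peak (42.8%, 40.7 to 44.9), against 36.6% (36.1 to 37.0) of the peaks without the flag and 36.9% of all peaks of that list. Of 1802 healthy L enhancer peaks, 596 overlapped no lymphoma L peak (33.1%, 30.9 to 35.3), against 35.3% (34.9 to 35.8) of those without the flag and 35.2% of all. The flag was accordingly on 5.43% (5.09 to 5.78) of peaks found in lymphoma L alone and on 4.24% (4.01 to 4.48) of those shared with healthy L. In the healthy L list it was on 3.77% (3.49 to 4.08) of peaks found there alone and on 4.16% (3.93 to 4.39) of shared peaks. There were 1.53 lymphoma-only enhancer peaks for each healthy-only one, whereas the peaks without the flag had 1.05.

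In M-H the one-group enhancer peaks were almost all from lymphoma. Of 1562 lymphoma M-H enhancer peaks, 964 overlapped no healthy M-H peak (61.7%, 59.3 to 64.1), against 48.2% (47.7 to 48.7) of the peaks without the flag and 48.8% of all. Of 659 healthy M-H enhancer peaks, 67 overlapped no lymphoma M-H peak (10.2%, 8.09 to 12.7), against 9.56% (9.15 to 9.98) of those without the flag and 9.58% of all. The ratio of lymphoma-only to healthy-only enhancer peaks was 14.4, and that of the other peaks 8.76. The flag was on 5.65% (5.32 to 6.01) of peaks found in lymphoma M-H alone and on 3.34% (3.09 to 3.62) of shared ones. List length moved with this ratio: the healthy M-H list was the shortest of the 4, and with the M-H lists trimmed to the same number of peaks by fold enrichment the ratio was 1.61, from 382 lymphoma-only and 237 healthy-only enhancer peaks. With equal lengths the lymphoma-only share was still higher for enhancer peaks (47.2%, 43.7 to 50.6) than for the other peaks (30.3%). The healthy-only share was then also higher for enhancer peaks (36.0%, 32.4 to 39.7) than for the other peaks (30.5%).

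**Figure D2:**
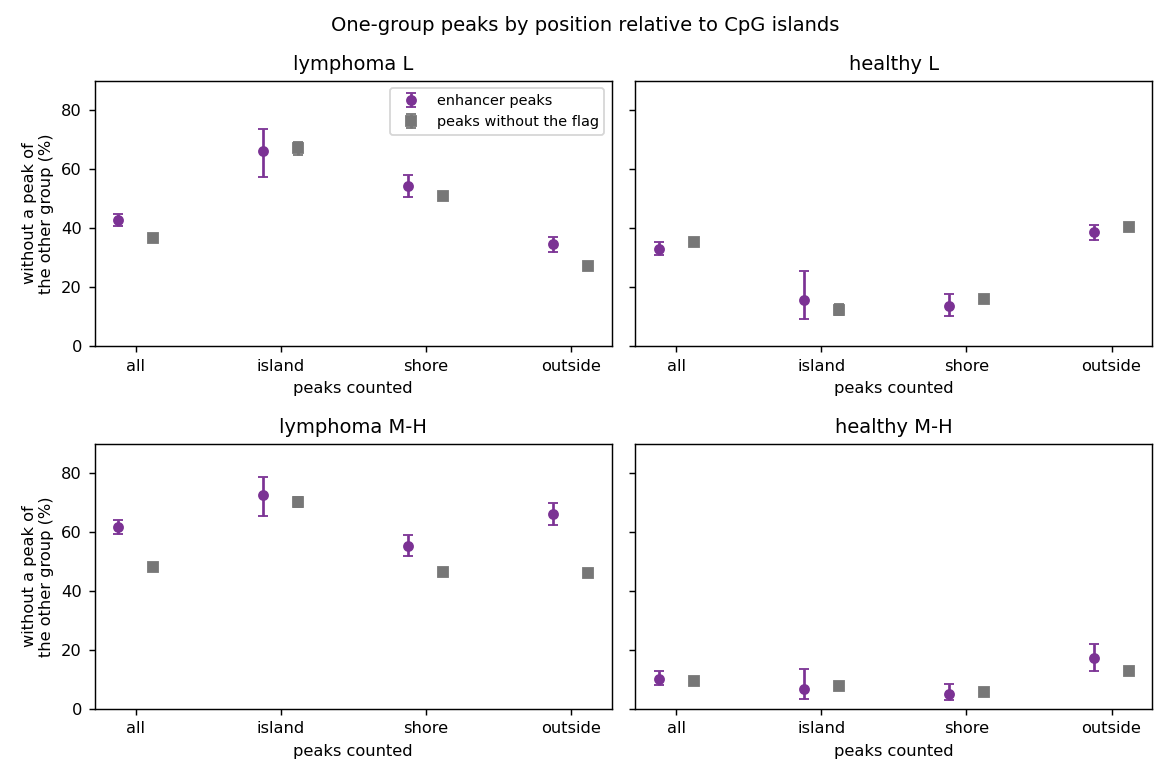
Share of peaks with no overlapping peak of the other group in the same fraction (%), with 95% Wilson intervals, for enhancer peaks (circles) and peaks without the flag (squares), over all peaks and by position in CpG islands, shores or outside both. Outside islands and shores 66.2% of lymphoma M-H enhancer peaks were lymphoma-only, against 46.0% of peaks without the flag.

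Position relative to CpG islands split the L enhancer peaks. In islands 66.1% (57.5 to 73.8) of lymphoma L enhancer peaks were lymphoma-only, in shores 54.3% (50.6 to 58.0) and outside both 34.5% (31.9 to 37.1). Healthy L enhancer peaks ran the other way, with 15.8% (9.27 to 25.6) healthy-only in islands, 13.6% (10.3 to 17.7) in shores and 38.7% (36.1 to 41.2) outside. Shores thus held 377 lymphoma-only and 45 healthy-only enhancer peaks, a ratio of 8.38, while outside islands and shores there were 452 and 539, a ratio of 0.839. The lymphoma excess in L did not hold outside islands, shores and promoters, where 414 lymphoma-only and 517 healthy-only enhancer peaks gave a ratio of 0.801, a setting chosen after seeing the data. In islands the ratio of enhancer peaks was 7.00. Peaks without the flag had ratios of 8.11 in islands, 5.85 in shores and 0.547 outside islands and shores.

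Outside islands and shores, enhancer peaks stood farthest from the other lymphoma peaks. There 34.5% (31.9 to 37.1) of lymphoma L enhancer peaks were lymphoma-only against 27.3% (26.7 to 27.8) of the other peaks, while in islands the values were 66.1% (57.5 to 73.8) and 67.1% (65.0 to 69.2). In lymphoma M-H the lymphoma-only share was 66.2% (62.5 to 69.8) for enhancer peaks and 46.0% (45.2 to 46.8) for the rest outside islands and shores, 55.3% (51.8 to 58.9) and 46.5% (45.7 to 47.2) in shores, and 72.7% (65.6 to 78.8) and 70.1% (68.4 to 71.8) in islands. In both lymphoma lists the intervals of enhancer and other peaks overlapped in islands and did not overlap outside islands and shores. In M-H the ratio of lymphoma-only to healthy-only enhancer peaks was above 1 in each position, at 17.9 in islands, 27.6 in shores and 9.44 outside.

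The share of one-group peaks was also compared within classes of fold enrichment, chosen after seeing the data. In lymphoma M-H the lymphoma-only share was 83.9% (80.6 to 86.8) for enhancer peaks and 77.0% (76.1 to 77.8) for the rest at a fold of 6 to 8. At a fold of 8 to 10 it was 61.1% (55.9 to 66.1) and 57.3% (56.1 to 58.5), where the intervals overlapped. At a fold of 12 or more 183 of 436 enhancer peaks were lymphoma-only (42.0%, 37.4 to 46.7), against 22.2% (21.4 to 22.9) of the rest. In lymphoma L the corresponding values at 12 or more were 15.6% (12.4 to 19.5) and 10.4% (9.88 to 11), and below 8 they were 59.4% (56.2 to 62.5) and 57.2% (56.5 to 58.0). At 12 or more the intervals of enhancer and other peaks did not overlap in either lymphoma list. In lymphoma L they overlapped in every lower class. There the shares were 42.5% and 38.4% at 8 to 10, and 28.5% and 25.3% at 10 to 12. In lymphoma M-H they also overlapped at 10 to 12, with 49.8% (43.6 to 56.0) and 42.3% (40.9 to 43.7). In the healthy lists they separated only below 8 in healthy L. There enhancer peaks were healthy-only less often, at 44.4% (41.4 to 47.5) against 50.0% (49.4 to 50.7). In healthy M-H 0 of 35 enhancer peaks with a fold of 12 or more were healthy-only, with an upper bound of 9.89%. The same held for 0 of 2316 peaks without the flag.

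**Figure D3:**
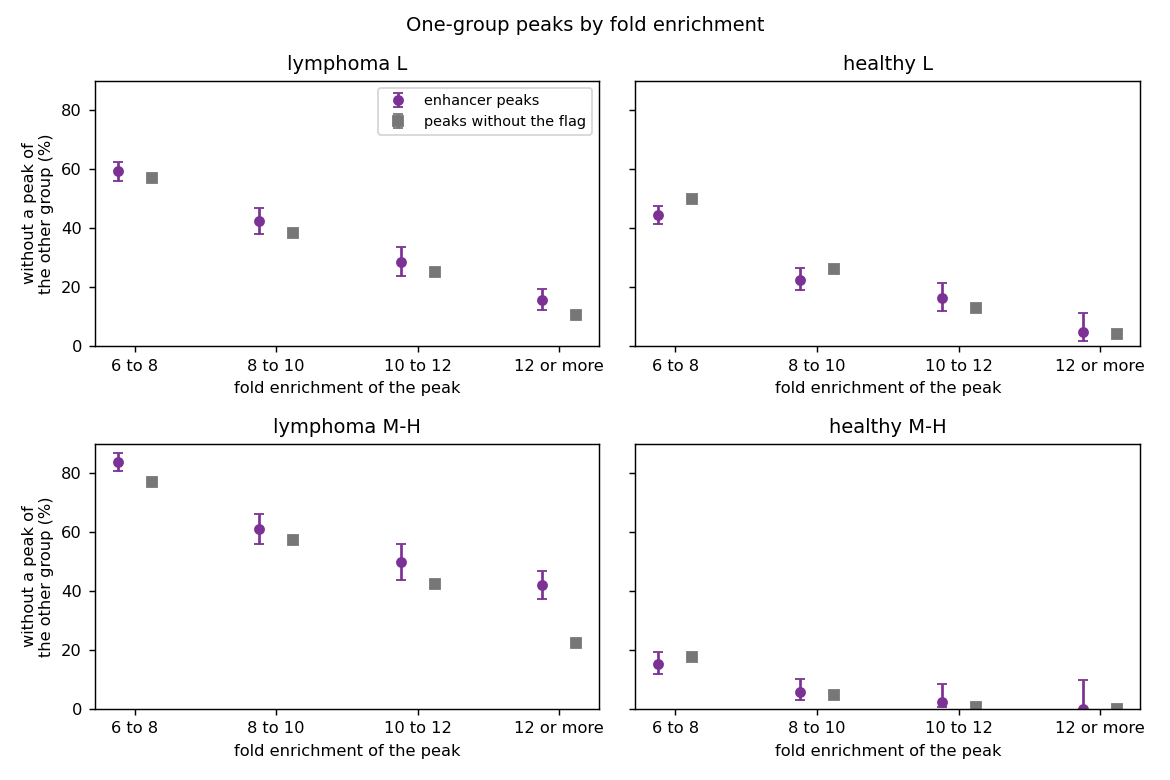
Share of peaks with no overlapping peak of the other group in the same fraction (%), with 95% Wilson intervals, by class of the peak's own fold enrichment, for enhancer peaks (circles) and peaks without the flag (squares). The share drops with fold enrichment in every list, and lymphoma M-H enhancer peaks at 12 or more stay at 42.0%, against 22.2% for peaks without the flag.

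One-group peaks were weaker than shared ones in each list, with and without the enhancer flag. Median fold enrichment was 7.51 for lymphoma-only and 9.57 for shared enhancer peaks in lymphoma L, 6.95 and 8.18 in healthy L, 8.42 and 11.2 in lymphoma M-H and 6.71 and 7.80 in healthy M-H. For peaks without the flag the medians were 7.50 and 10.3, 6.95 and 8.58, 8.16 and 12.7, and 6.68 and 8.44, in the same order of lists. Lymphoma-only enhancer peaks of the L list lay closer to transcription starts, at a median of 11844 bp, than the shared ones at 19488 bp. In lymphoma M-H these medians were 9846 bp and 18184 bp. Peaks without the flag had at least as wide a contrast, with 11396 bp for lymphoma-only and 24636 bp for shared peaks in lymphoma L, and 9642 bp and 22778 bp in lymphoma M-H. From one-group enhancer peaks, the nearest peak of the other group lay a median of 10080 bp away for lymphoma L and 10407 bp for healthy L. The medians were 22100 bp for lymphoma M-H and 9066 bp for healthy M-H. For one-group peaks without the flag they were 12395, 12843, 23292 and 9194 bp, in the same order of lists. A peak of the other group lay within 5 kb of 25.4%, 24.5%, 9.54% and 31.3% of the one-group enhancer peaks, in that order.

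The fractions were then compared within each group. Enhancer peaks of the L lists often had no M-H peak, above all in healthy dogs. Of the lymphoma L enhancer peaks 845 had no overlapping lymphoma M-H peak (39.6%, 37.6 to 41.7, against 36.8% of all peaks), and of the lymphoma M-H enhancer peaks 281 had no lymphoma L peak (18.0%, 16.2 to 20.0, against 17.9%). Of the healthy L enhancer peaks 1434 had no healthy M-H peak (79.6%, 77.7 to 81.4, against 71.6%), and of the healthy M-H enhancer peaks 289 had no healthy L peak (43.9%, 40.1 to 47.7, against 36.7%). L enhancer peaks without an M-H peak lay mainly outside islands and shores, where 54.8% (52.1 to 57.5) of lymphoma L enhancer peaks had none, against 49.0% of the rest, and 86.6% (84.7 to 88.3) of healthy L enhancer peaks, against 78.2%. In shores the values were 15.9% (13.3 to 18.8) against 14.7% in lymphoma L and 54.5% (49.1 to 59.8) against 44.2% in healthy L. M-H enhancer peaks had the opposite order, with 8.41% (6.50 to 10.8) of lymphoma M-H enhancer peaks outside islands and shores and 31.4% (24.9 to 38.7) of those in islands lacking an L peak. The other lymphoma M-H peaks had the same order, with 7.79% and 37.2%.

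Overlapping flagged peaks of the 4 lists were merged into enhancer loci, and all peaks were merged separately into loci for comparison. This gave 3087 enhancer loci, with a median length of 631 bp, and 67914 loci of all peaks. At each locus a list counts as present if it has any overlapping peak there, flagged or not. Enhancer loci were rarer in all lists together and more frequent in both lymphoma lists alone than loci without the flag. A peak in all 4 lists was present at 365 enhancer loci (11.8%, 10.7 to 13.0), against 17.1% of all loci. Peaks in both lymphoma lists and no healthy list were present at 405 (13.1%, 12 to 14.4), against 9.70% of all loci. The mirror pattern, both healthy lists and no lymphoma list, had 13 enhancer loci (0.421%, 0.246 to 0.719), against 0.362% of all loci. The most frequent pattern was a peak in healthy L alone, at 575 loci (18.6%, 17.3 to 20.0), against 22.5% of all loci. Next came both L lists and no M-H list, at 501 (16.2%), against 15.2% of all loci. Patterns with a single list made up 36.3% of enhancer loci and 37.9% of loci without the flag.

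**Figure D4:**
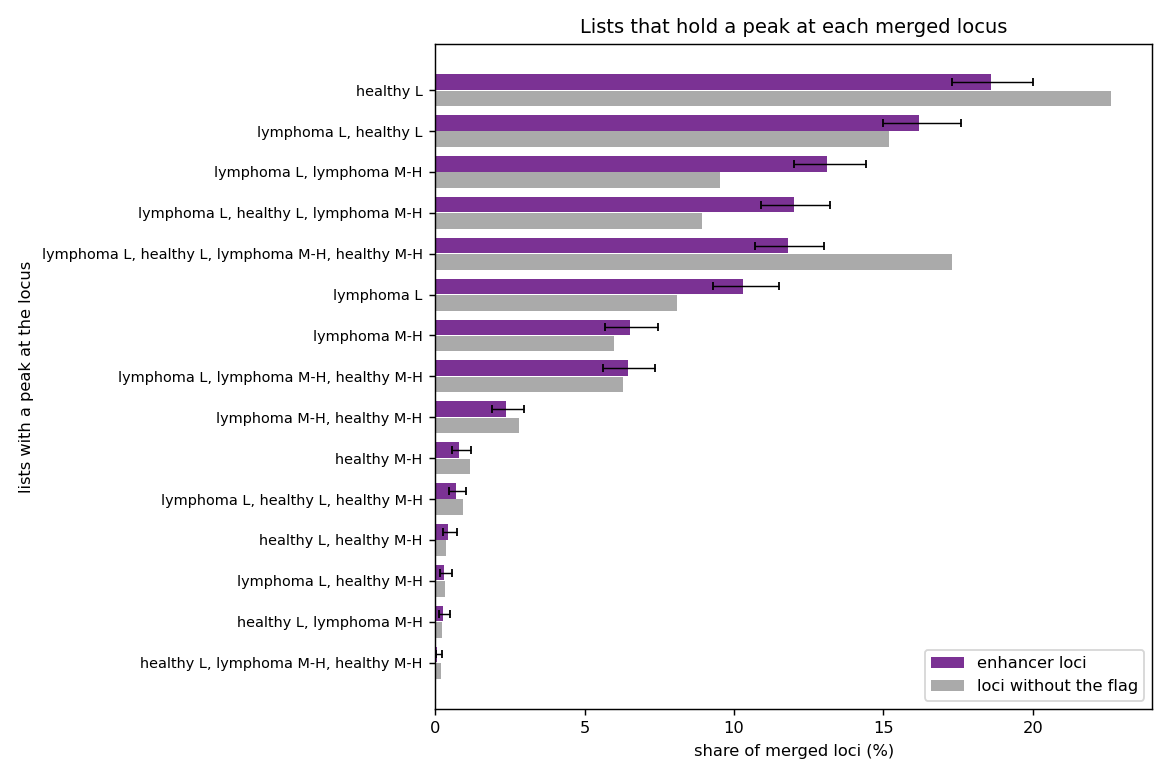
Share of merged loci (%) by the lists that hold a peak there, for 3087 enhancer loci (purple, with 95% Wilson intervals) and 64827 loci without the flag (grey). Enhancer loci exceed the others in the pattern of both lymphoma lists alone (13.1% against 9.54%) and fall short in that of all 4 lists (11.8% against 17.3%).

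Within L, 932 of 2788 enhancer loci were lymphoma-only (33.4%, 31.7 to 35.2, against 27.2% of all loci), 598 were healthy-only (21.4%, against 25.8%) and 1258 were in both. Within M-H, 985 of 1692 were lymphoma-only (58.2%, 55.8 to 60.5, against 46.2%), 68 were healthy-only (4.02%, against 5.13%) and 639 were in both. The patterns differed in where their loci lay. An island or shore was flagged at 62.7% (57.9 to 67.3) of loci in both lymphoma lists alone and at 79.1% (73.0 to 84.2) of those in lymphoma M-H alone. It was flagged at 8.17% (6.20 to 10.7) of loci in healthy L alone and at 10.6% (8.18 to 13.6) of those in both L lists alone. Loci in all 4 lists lay between, at 54.5% (49.4 to 59.6). Promoters were flagged at 23.2% (19.4 to 27.6) of the loci in both lymphoma lists alone and at 12% (10.9 to 13.2) of all enhancer loci. These shares were not computed for loci without the flag, but single peaks without it differed in the same direction. Shores held 44.3% of lymphoma-only peaks without the flag in M-H and 7.94% of healthy-only ones in L. Promoters held 18.0% of lymphoma-only and 10.3% of shared peaks without the flag in lymphoma M-H.

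The strongest enhancer loci of both lymphoma lists alone were mostly intergenic shores. A locus at chromosome 8, 26422930 to 26423312 (CanFam3.1), intergenic and in a shore, had a fold enrichment of 17.7 in lymphoma L and 17.9 in lymphoma M-H and no peak in either healthy list. Next came shore loci at chromosome 23, 31106838 to 31107329 (16.8 in lymphoma L and 16.9 in lymphoma M-H), and chromosome 26, 22274797 to 22275439 (20.7 and 16.2), both intergenic. The locus at chromosome 7, 15556590 to 15557478 (16.2 and 17.6), was intergenic and outside islands and shores. The only one of the leading 6 with a gene was upstream of ADGB, which encodes androglobin, a globin family protein known from testis, at chromosome 1, 37752433 to 37753168. It was flagged as promoter, lay at -412 bp from the transcription start and had 20.0 in lymphoma L and 16.2 in lymphoma M-H. The sixth lay at chromosome 29, 828193 to 828926 (15.5 and 19.7), an intergenic shore.

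Among loci in all 4 lists the highest lowest fold enrichment belonged to an intron of C1H9orf3 at chromosome 1, 71993430 to 71994348, with 12.9 in lymphoma L, 11.8 in healthy L, 17.5 in lymphoma M-H and 13.9 in healthy M-H. CDKL1, a protein kinase gene, followed with 17.2 in lymphoma L, 12.4 in healthy L, 20.6 in lymphoma M-H and 11.4 in healthy M-H, in a shore at chromosome 8, 26775125 to 26776003. Introns of LOC111092358 and FAM114A1 and an intergenic locus of chromosome 6 completed the leading 5. Of these 5 loci, 1 lay in a shore and 0 in an island or promoter.

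Only 13 loci had peaks in both healthy lists alone. An intergenic locus at chromosome 12, 6539920 to 6540439, had 12.3 in healthy L and 8.16 in healthy M-H. An intron of PDZRN3, which encodes a ubiquitin ligase, had 9.41 in healthy L and 8.09 in healthy M-H (chromosome 20, 18739312 to 18739816). PLPP1, a phosphatase of lipid phosphates, had 9.74 and 7.42 in an intron, and PTMS, which encodes parathymosin, had 8.18 and 7.35 in an intron. An intergenic island locus of chromosome 36 (13.5 in healthy L and 7.42 in healthy M-H) and a locus downstream of LOC102153035 (10.6 and 7.28) completed the leading 6.

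Strong one-group peaks of 1 fraction were not always one-group in the other. RASSF2, a Ras-association gene known as a tumour suppressor in people, had an intronic enhancer peak of 17.1 in lymphoma L at chromosome 24, 16743102 to 16743916, and no overlapping healthy L peak. Its locus nevertheless had a healthy M-H peak of 10.3 beside a lymphoma M-H peak of 15.9. FGF1, a fibroblast growth factor, had a lymphoma M-H peak of 20.7 in an intron (chromosome 2, 37507780 to 37508354) and no healthy M-H peak. In L the same FGF1 locus had a peak in lymphoma (20.8) and in healthy (8.59) dogs. An intergenic shore at chromosome 1, 61943610 to 61944157, led the lymphoma-only M-H enhancer peaks with 22.5. LOC111092157 (20.9), an intergenic peak of chromosome 34 (20.3) and LOC111096732 (20.0) followed, each in a shore.

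Healthy-only enhancer peaks were led by UGT2B31, a glucuronosyltransferase of the dog, with 13.9 in healthy L, downstream of the gene at chromosome 13, 59008073 to 59008589. PDE6C, a phosphodiesterase of cone photoreceptors, had 12 in its 5' UTR, and LOC111098044 had 12.7 in its 5' UTR. In healthy M-H the leading healthy-only enhancer peaks were downstream of SPC24, a kinetochore gene, with 10.4 (chromosome 20, 50109623 to 50110248), and upstream of ALYREF, an mRNA export factor, with 10.1. FRK, a gene for a tyrosine kinase, had 8.61 in an intronic island. Apart from the ALYREF promoter peak, these healthy peaks lay outside promoters by the authors' flag.

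Enhancer loci were scattered over many genes. The authors' annotation put 2316 of the 3087 loci with 1815 genes, 10.0% of the 18148 genes with any peak. A single enhancer locus was assigned to 1453 of these genes, 2 loci to 263 and 3 or more to 99, with at most 8. With loci up to 12.5 kb apart joined, a distance chosen after seeing the data, 2262 loci stood alone, 293 pairs and 70 larger clusters formed, and 26.7% of loci lay in a cluster. The largest clusters held 5 loci. In a cluster of 5 at SLC22A23, a gene of the organic ion transporter family, 4 loci had a lymphoma M-H peak, 1 a lymphoma L peak, 1 a healthy M-H peak and 0 a healthy L peak. In a cluster of 5 at NEDD9, an adhesion scaffold gene, 4 had a lymphoma L and 4 a healthy L peak, and 1 had a peak in each M-H list.

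The 6 genes with the most enhancer peaks were FOXN3, SPTBN1, GSE1, TNS1, GRK5 and MYLK. FOXN3, which encodes a forkhead repressor, had 20 enhancer peaks at 8 intronic loci over 160 kb of chromosome 8, from 60345204 to 60504816. Peaks were present at 6 of its loci in lymphoma L, 7 in healthy L, 5 in lymphoma M-H and 2 in healthy M-H, so its peaks were mostly shared in L. SPTBN1, which encodes a spectrin of the membrane skeleton, had 8 loci over 66.3 kb of chromosome 10, with a peak at 7 in lymphoma L, 3 in healthy L, 4 in lymphoma M-H and 1 in healthy M-H. Of the SPTBN1 loci with an L peak, 2 were in both groups, 5 lymphoma-only and 1 healthy-only. Their fold enrichment in lymphoma L ranged between 6.40 and 11.6.

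GSE1, a coiled-coil protein gene, had 7 loci over 343 kb of chromosome 5, with a peak at 5 in lymphoma L, 2 in healthy L, 5 in lymphoma M-H and 3 in healthy M-H. TNS1, which encodes tensin, a protein of focal adhesions, had 7 loci on chromosome 37, with a peak at 5 in lymphoma L, 2 in healthy L, 4 in lymphoma M-H and 2 in healthy M-H. GRK5, a kinase that desensitises G-protein-coupled receptors, had 5 loci on chromosome 28, all with a peak in both lymphoma L and healthy L. MYLK, the myosin light chain kinase, had 5 loci on chromosome 33, with a peak at 4 in lymphoma L, 3 in healthy L, 4 in lymphoma M-H and 2 in healthy M-H. Thus SPTBN1, GSE1 and TNS1 had more loci in lymphoma L than in healthy L, while all GRK5 loci were shared in L. The first 3 genes had the same order over all their peaks, flagged or not. In lymphoma L and healthy L these numbered 8 and 4 for SPTBN1, 25 and 9 for GSE1, and 11 and 2 for TNS1. For GRK5 they numbered 9 and 13.

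**Figure D5:**
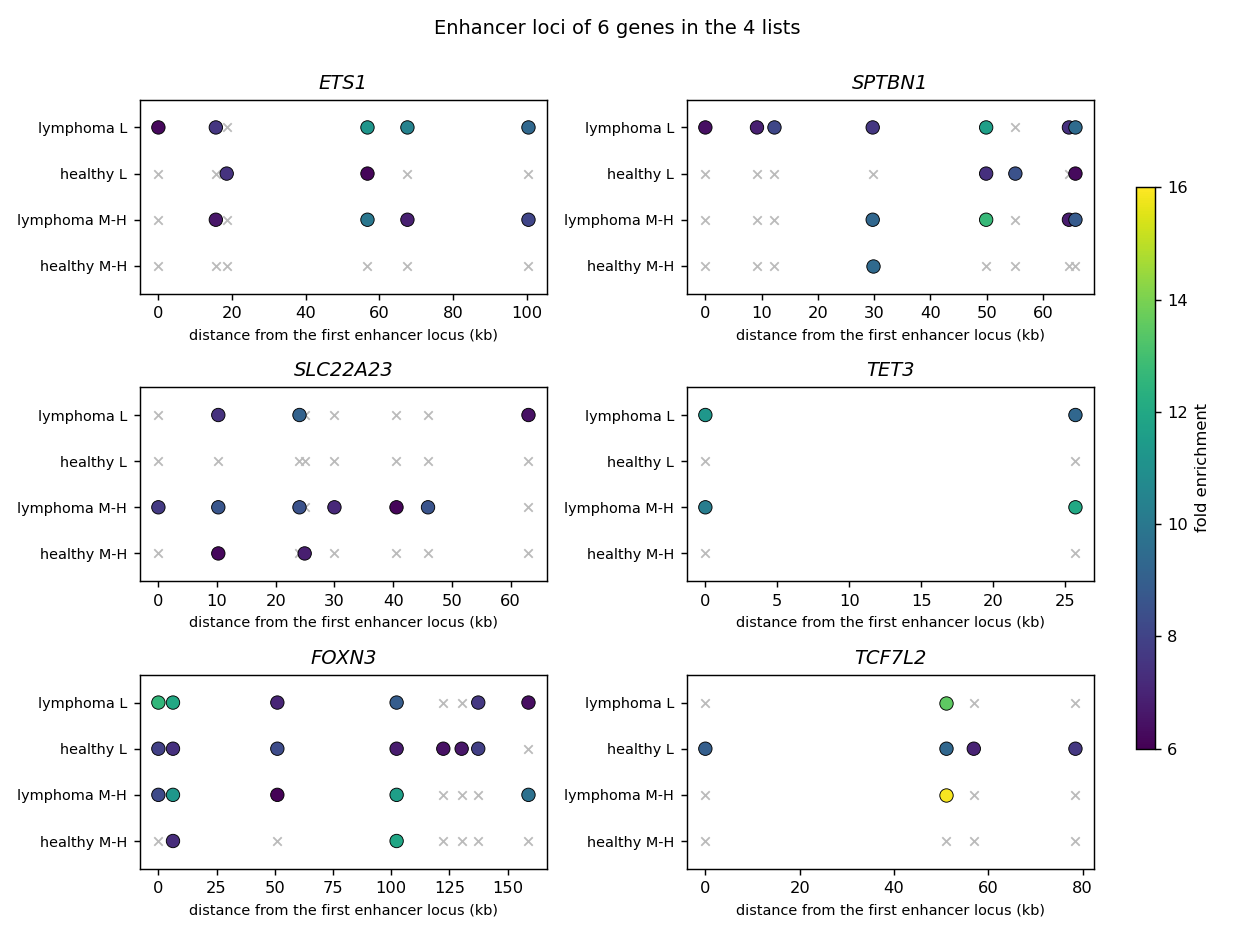
Enhancer loci of 6 genes by distance from the gene's first enhancer locus (kb, horizontal) in the 4 lists (rows), where circles mark a peak, coloured by its fold enrichment, and crosses mark no peak. ETS1 has no peak in healthy M-H at any of its 6 loci, TET3 none at its 2 loci in either healthy list, and TCF7L2 has 3 loci with a peak in healthy L alone.

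Several genes had repeated one-group loci, a count taken after the values were seen. At least 3 lymphoma-only enhancer loci were found for 12 genes in L and 10 genes in M-H, and at least 3 healthy-only loci for 2 genes in L and 0 in M-H. SPTBN1, GSE1, SLC22A23, ETS1, BICRA and LOC102151699 were in both lymphoma sets. The genes with at least 3 healthy-only loci in L were FMNL3, a formin, and TCF7L2. These counts stand beside totals of 689 lymphoma-only and 450 healthy-only enhancer loci with a gene in L, and 735 and 48 in M-H. No such gene count was made for loci without the flag. In L 61 genes had a lymphoma-only locus and also a healthy-only one. SLC22A23 had 8 intronic loci on chromosome 35, from 3590812 to 3654377, with a peak at 3 in lymphoma L, 0 in healthy L, 6 in lymphoma M-H and 2 in healthy M-H. SLC40A1, which encodes the iron exporter ferroportin, had 4 loci on chromosome 37, from 307492 to 333450, with a peak at 3 in lymphoma L, 0 in healthy L, 4 in lymphoma M-H and 3 in healthy M-H. SLC40A1 was therefore lymphoma-only in L and mostly shared in M-H.

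Among genes of B-cell transcription factors, ETS1 held most of the one-group enhancer loci. Of 22 such genes with any peak, 7 had an enhancer peak (31.8%), beside 10.0% of all genes with a peak, a difference that was not tested. A gene with more peaks can more easily hold a flagged one. Genes were not matched for their number of peaks, here or in the lists below. ETS1, a transcription factor of lymphoid cells, had 6 intronic loci over 101 kb of chromosome 5, from 6080362 to 6181347. In L, 1 of them was in both groups, 4 were lymphoma-only and 1 was healthy-only, and in M-H 4 were lymphoma-only and none had a healthy peak. The locus at 6136912 to 6137821 had 11.2 in lymphoma L, 6.13 in healthy L and 9.95 in lymphoma M-H. The locus at 6147985 to 6148448 had 10.4 in lymphoma L and 6.87 in lymphoma M-H, and the locus at 6180832 to 6181347 had 9.33 and 8.07, with no healthy peak at either. Over all its peaks, flagged or not, ETS1 had 8 in lymphoma L, 4 in healthy L, 6 in lymphoma M-H and 1 in healthy M-H.

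The other factors of B-cell identity were mostly shared or healthy-only. PAX5, which commits cells to the B lineage, had 1 intronic locus with a peak in all 4 lists (7.36 in lymphoma L, 7.17 in healthy L, 14.1 in lymphoma M-H and 8.38 in healthy M-H). BACH2, a repressor in B cells, and BCL11A, a zinc finger factor of early lymphoid cells, likewise had 1 intronic locus each in all 4 lists. FOXP1 had 1 locus in both L lists, with 8.13 in lymphoma L and 7.36 in healthy L. POU2AF1, a coactivator in B cells, had a healthy L peak of 9.41 in its 5' UTR, and BCL6, the repressor of germinal-centre B cells, a healthy L peak of 6.41 downstream. Over the whole list 12 L loci comprised 5 in both groups, 4 lymphoma-only and 3 healthy-only, and all 4 lymphoma-only ones were those of ETS1. The lymphoma-only share of 33.3% was close to the 33.2% of all L enhancer loci with a gene. Of 16 B-cell surface and signalling genes with a peak, 3 had an enhancer locus (18.8%). They were FCER2, the low-affinity IgE receptor, lymphoma-only in L (7.27), TNFRSF13B, a receptor for B-cell survival factors, healthy-only in L (7.03), and the chemokine receptor gene CCR7 in both.

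Markers of other blood cells were counted in the same way. Of 26 T-cell and cytotoxic genes with a peak, 3 had an enhancer peak (11.5%), close to the 10.0% of all genes with a peak. CD247 encodes the zeta chain of the T-cell receptor complex. Its coding-exon island peak had 7.55 in lymphoma L and 9.76 in lymphoma M-H, with no healthy peak there. Each healthy list held 1 CD247 peak elsewhere, without the flag. LCK, a kinase of T-cell receptor signalling, had a lymphoma L peak of 6.19 in its promoter. TCF7, a transcription factor of T cells, had 1 locus in all 4 lists and 1 in lymphoma L alone (6.28). Of 15 monocyte and granulocyte genes, 1 had one (6.67%): CSF3R, the receptor of granulocyte colony-stimulating factor, had a lymphoma M-H peak of 6.82. The lists count methylated loci and not cells, and differing shares of cell types in lymph node aspirates and blood were not tested.

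Genes recurrently altered in B-cell lymphoma had enhancer peaks at 5 of 33 members with a peak (15.2%, beside 10.0% of all genes with a peak). BCL2, the apoptosis inhibitor, had 2 intronic loci on chromosome 1, the first with 9.65 in lymphoma L, 10.9 in healthy L and 9.27 in lymphoma M-H, and the second in all 4 lists. NOTCH1, a receptor of cell-to-cell signalling, had a promoter locus in both lymphoma lists (6.38 in lymphoma L and 6.52 in lymphoma M-H) and an intronic locus in healthy L (6.51). STAT6 was lymphoma-only in L, and BCL6 and TRAF3 were healthy-only in L. Of 7 L loci in the list, 2 were found in lymphoma alone, 3 in healthy alone and 2 in both groups, a lymphoma-only share of 28.6% beside 33.2% of all L enhancer loci with a gene.

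Among 40 chromatin and DNA methylation genes with a peak, 10 had an enhancer locus (25.0%, beside 10.0% of all genes with a peak). TET3, a dioxygenase that starts the removal of DNA methylation, had 2 intronic shore loci on chromosome 17, each in both lymphoma lists and in no healthy list. The TET3 locus at 49041058 to 49041886 had 11.3 in lymphoma L and 10.2 in lymphoma M-H, and that at 49066581 to 49067776 had 9.30 and 12. Elsewhere TET3 had 4 peaks in healthy L and 2 in healthy M-H, all without the flag. DNMT3A, a de novo DNA methyltransferase, had 2 loci. The locus at 19559917 to 19560558 had 6.45 in lymphoma L and 6.53 in lymphoma M-H and no healthy peak, and the other, at the promoter, was in all 4 lists. In this list 14 L loci comprised 4 in both groups, 5 lymphoma-only and 5 healthy-only. Its 7 M-H loci comprised 3 in both groups, 4 lymphoma-only and 0 healthy-only. The lymphoma-only shares, 35.7% in L and 57.1% in M-H, were close to the 33.2% and 58.0% of all enhancer loci with a gene.

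Genes of the WNT, BMP, FGF, hedgehog and Notch pathways had an enhancer peak at 11 of 66 members (16.7%, beside 10.0% of all genes with a peak). Of their 23 L loci, 7 were in both groups, 10 lymphoma-only (43.5%) and 6 healthy-only, beside 33.2% lymphoma-only among all L enhancer loci with a gene. SMAD3, a transducer of TGF-beta signals, had 5 loci on chromosome 30, of which 3 were lymphoma-only and 2 healthy-only in L. SMAD6, an inhibitor of BMP signalling, had 3 loci, 2 lymphoma-only and 1 in both in L, with the highest lymphoma L value of 11.4. TCF7L2, a transcription factor of WNT signalling, had 4 intronic loci on chromosome 28, from 24015036 to 24094131, and 3 of them had a peak in healthy L alone, with 9.0, 6.95 and 7.61. The remaining TCF7L2 locus had 13.5 in lymphoma L, 9.29 in healthy L and 15.9 in lymphoma M-H. Over all its peaks, flagged or not, TCF7L2 was near balance in L, with 10 in lymphoma L and 11 in healthy L. In M-H it had 6 in lymphoma and 3 in healthy. The pathways thus held genes with loci of either direction.

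Developmental transcription factors outside the HOX clusters had an enhancer peak at 2 of 87 members with a peak (2.30%), beside 10.0% of all genes with a peak. MEIS1, a homeobox partner of HOX proteins, had a lymphoma M-H peak of 8.21 in an intronic shore, and PROX1, a factor of lymphatic endothelium, had 1 locus in all 4 lists. Of 28 HOX genes, 4 had enhancer loci (14.3%). HOXB5 had 1 locus in both lymphoma lists alone (7.51 in lymphoma L and 9.23 in lymphoma M-H, in the 3' UTR) and 1 in both healthy lists alone (7.69 in healthy L and 6.90 in healthy M-H, at the promoter), 3.73 kb from end to end on chromosome 9. Of 50 adhesion and axon guidance genes, 9 had enhancer loci (18.0%), with 2 lymphoma-only, 6 healthy-only and 5 in both among 13 L loci. Over all genes 689 of 2077 L enhancer loci were lymphoma-only and 450 healthy-only. PLXND1, PLXNA4 and CDH5, which encode plexins and the endothelial cadherin, each had a healthy-only L locus, at 6.60, 8.43 and 7.86. PLXND1 also had a lymphoma-only locus, with 7.67 in lymphoma L and 6.85 in lymphoma M-H. Among 24 housekeeping genes with a peak, 1 had an enhancer locus (4.17%), ENO1, the glycolytic enolase, with a peak in all 4 lists.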

How the data were processed

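MethylCap-seq of 16 libraries, from 5 dogs with lymphoma and 3 healthy dogs, was deposited as 1 peak list per peak group, and per the labels each library belongs to 1 of these 4 groups. The submitters' processing notes name BWA and MACS2 and give CanFam3.1 as the build, but no version or setting. How the dogs of a group were combined is not stated there. The deposited fold enrichment is the authors' ratio per peak and is never below 6, so a locus without a peak can hold methylated DNA of lower enrichment. Enhancer, island, shore and promoter flags, positions and gene names were used as deposited, per the file headers. The lists give no reads per library, so depth is unknown.

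Peak starts were read as 0-based and are printed 1-based. A spreadsheet had changed 54 gene symbols of the lymphoma L list into dates. The 3 on enhancer peaks were restored from the gene description, and the other 51 were left without a symbol. Peaks sharing at least 1 bp were shared. Overlapping peaks of the 4 lists were merged into loci, once for flagged peaks alone and once for all peaks. Of 1815 genes with an enhancer peak, 1653 (91.1%) matched a RefSeq table of another assembly (UU_Cfam_GSD_1.0), used for names only. Python 3.11.15, pandas 2.3.3, numpy 2.4.6 and scipy 1.17.1 were used, and the overlap steps were tested on simulated data.

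Groups came from the labels. The comparisons were lymphoma against healthy in each fraction and L against M-H in each group, with no test. Named peaks follow a rule: per list the 5 one-group enhancer peaks with the highest fold enrichment, the 5 loci of all 4 lists and the 6 loci of either group alone with the highest lowest fold enrichment, the 6 genes with the most enhancer peaks, and up to 3 members per gene list with the most one-group enhancer peaks. SLC22A23, SLC40A1, NEDD9, BICRA, LOC102151699, FMNL3, the shared members of the gene lists, and STAT6 and TRAF3 were named after their values were seen. Some genes that the rule names are not reported here. The members and lists were chosen with earlier results of these data known. Alternatives were another overlap, a wider window for absence, stricter fold enrichment, equal list lengths, flagged peaks only and autosomes only.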

Additional observations from a re-analysis of the deposited data

How the results depend on the processing

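No paired analysis was possible because each list pools its dogs, although L and M-H libraries share dog numbers, and for the same reason no replicate could be left out. The cause of the changes below was not tested, beyond the list cuts built into a setting. Unknown depth and the lower limit of 6 on fold enrichment bound what an absent peak can mean. Of 97 recomputed values over 29 results, 49 kept their size, 47 moved and 1 turned its direction. That 1 was the ratio of lymphoma-only to healthy-only enhancer peaks in L, 1.53 as reported and 0.801 outside islands, shores and promoters, where the M-H ratio was 9.14. The ratios and the settings of 5 kb and of peaks outside islands, shores and promoters were added after seeing the data.

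The one-group share of enhancer peaks was 40.1% in lymphoma L and 30.5% in healthy L with no peak within 1 kb. With no peak within 5 kb it was 31.9% in lymphoma L, 25.0% in healthy L, 55.8% in lymphoma M-H and 6.98% in healthy M-H. Where both lists were limited to a fold of 8 or more it was 55.8% in lymphoma L and 73.7% in lymphoma M-H, and with at least 10 it was 71.5% in lymphoma L, 37.1% in healthy L, 83.6% in lymphoma M-H and 5.88% in healthy M-H. The ratios were then 2.49 in L and 30.4 in M-H at 8, and 4.36 in L and 81.6 in M-H at 10. At both limits a larger part of the healthy than of the lymphoma enhancer peaks falls away. Equal list lengths gave 47.2% in lymphoma M-H and 36.0% in healthy M-H, a ratio of 1.61. Counting only flagged peaks of the other list gave 13.8% in healthy M-H. Outside islands, shores and promoters the shares were 34.0% in lymphoma L, 39.1% in healthy L, 66.4% in lymphoma M-H and 17.5% in healthy M-H. In all these settings where peaks without the flag are counted alike, the lymphoma lists kept a higher share for enhancer peaks than for those. The healthy share was also above that of peaks without the flag, beyond its interval, in healthy L at a fold of at least 10 (29.0% of those) and in healthy M-H with equal lengths (30.5%) and outside islands, shores and promoters (12.9%).

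The share of enhancer peaks without a peak of the other fraction was 85.3% in healthy L, 29.1% in lymphoma M-H and 60.5% in healthy M-H at a fold of at least 8. With equal lengths it was 31.0% in lymphoma L, 72.9% in healthy L, 30.7% in lymphoma M-H and 69.8% in healthy M-H. The share of peaks flagged as enhancer was 4.41% in lymphoma L, 3.84% in lymphoma M-H and 2.56% in healthy M-H for peaks without other flags. It was 4.27% in lymphoma L, 3.79% in healthy L, 4.24% in lymphoma M-H and 2.82% in healthy M-H at a fold of at least 8, and 3.96%, 3.39%, 3.87% and 2.23% at 10, in the same order of lists. At 8 the intervals of lymphoma L (4.04 to 4.52) and healthy L (3.54 to 4.06) overlapped. At 10 they also overlapped, with 3.68 to 4.25 and 3.04 to 3.78. Those of the M-H lists stayed apart at both limits. By covered bases the share flagged was 4.25% in lymphoma M-H. With flagged peaks alone counted, loci in healthy M-H alone numbered 44 (25 as reported), those in healthy L and lymphoma M-H 5 (8) and those in these and healthy M-H 4 (2).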
